A study of Drosophila melanogaster with 2 samples.

Results

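The genes described here are 8 Drosophila regulators of stress and immediate early responses: cbt, Atf3, Lk6, kay, Jra, crc, Xbp1 and Hr38, out of 13945 protein-coding genes on the chromosome arms. Their windows held 18 of the 4434 summits of the authors' optimal peak list. They were chosen by name, with the peak values of this experiment already known, so their own peak signals are given as a description with no test. Chromatin immunoprecipitation followed by sequencing (ChIP-seq), which maps where a protein contacts the genome, was carried out in mixed-sex whole embryos collected at 2 to 24 hours. All material came from a transgenic line that expresses Org-1 with green fluorescent protein at its C-terminal end, and chromatin sheared to fragments of 200 to 800 bp was recovered with an antibody against the fluorescent protein. There were 2 biological replicates of this 1 group, and no other genotype or condition was analysed here. The labels do not say which promoter drives the fusion, and their antibody field names org-1 itself. In whole embryos the cells that give a region its signal cannot be told apart.

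Org-1 belongs to the T-box family of DNA-binding proteins and is the fly relative of vertebrate Tbx1. Immediate early genes are switched on soon after a stimulus without new protein synthesis, and many encode transcription factors that set a slower response. The Fos protein Kay and the Jun protein Jra form the AP-1 dimer, which Jun N-terminal kinase (JNK) activates in dorsal closure and wound repair. Atf3 is a basic leucine zipper (bZIP) partner of Jun. Crc is the fly ATF4, the effector of the integrated stress response, and Xbp1 is the bZIP factor of the unfolded protein response, made active when Ire1 splices its mRNA. Cbt (Cabut) is a zinc finger factor related to vertebrate TIEG/Klf10 and is needed for dorsal closure. Hr38 is the fly NR4A nuclear receptor, a marker of neuronal activity, and Lk6 is a kinase related to mammalian Mnk that phosphorylates the cap-binding protein eIF4E.

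The regions were read from the authors' peak lists in genome build dm6. The optimal list, which the authors thresholded on the irreproducible discovery rate between replicates, held 4434 regions, and the pooled list and each replicate list held 30000 candidates. Each region has a signal, which is the authors' own score, and a summit, the base of highest signal. The signals are not read counts, so depth is unknown. The pooled signal was close to the sum of the replicate signals, with a median ratio of 0.999 over 4264 optimal regions. A pooled value of 200 therefore does not compare with a value of 200 in 1 replicate. The optimal signals ran from 100.7 to 2560 with a median of 164. Replicate 1 tended to be the higher library, since the median ratio of replicate 2 to replicate 1 was 0.731 over the optimal regions.

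Among the 8 genes, 7 had at least 1 optimal summit inside the gene or up to 5 kb from either end, beside 41.0% of all protein-coding genes, and crc had none. For 5 of the 8 there were 2 or more such summits, beside 17.0% of all genes. A summit within 500 bp of one of the gene's own transcript starts was present at 4 genes (cbt, Atf3, Lk6 and Xbp1), beside 13.6%. A summit of the 100 strongest was present at 3 genes (cbt, Lk6 and Atf3), beside 1.94%. These shares are printed for scale only, since the choice of the genes used the same peaks. The median span of the 8 genes was 11094 bp against 2166 bp for all genes, and a longer window takes in more summits. Jra (2077 bp), Xbp1 (2206 bp) and cbt (3243 bp) were near the median of all genes, and the other 5 were longer. The part of gene length in these counts was not tested.

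By their strongest summit, cbt, Lk6 and Atf3 were among the 100 strongest of the optimal list, Xbp1, Jra and kay were at ranks 1440, 1821 and 2315 of 4434, Hr38 was at rank 4244, near the end, and crc had none. The sequences at the strongest summits are shown because they are the most intense regions at any of these genes. Each is the summit base with 100 bases to either side, on the forward strand of genome release 6 (dm6), from the RefSeq assembly. Capitals mark matches, on either strand, to 15 of the 16 words searched, the short E-box word being left in lower case. The cbt region is chr2L:480965-481165, the Lk6 region is chr3R:11760944-11761144 and the Atf3 region is chrX:1275411-1275611.
cbt, rank 2: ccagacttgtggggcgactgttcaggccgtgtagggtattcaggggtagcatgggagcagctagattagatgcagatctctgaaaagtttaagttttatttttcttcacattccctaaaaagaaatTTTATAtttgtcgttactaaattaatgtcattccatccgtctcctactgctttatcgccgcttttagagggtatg
Lk6, rank 10: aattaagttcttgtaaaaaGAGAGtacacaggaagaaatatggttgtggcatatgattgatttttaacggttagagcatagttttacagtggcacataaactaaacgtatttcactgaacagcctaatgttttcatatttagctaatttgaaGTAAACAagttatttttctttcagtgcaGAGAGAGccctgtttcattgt
Atf3, rank 18: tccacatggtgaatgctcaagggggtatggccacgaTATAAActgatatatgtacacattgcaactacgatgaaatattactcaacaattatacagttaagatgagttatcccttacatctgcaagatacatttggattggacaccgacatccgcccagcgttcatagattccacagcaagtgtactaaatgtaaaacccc

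None of these 3 windows contained the T-box core AGGTGTG or the AP-1 word TGANTCA. The cbt window held a TATAAA word, read on the reverse strand, and the Atf3 window another, on the forward strand. The Lk6 window held a forkhead word, TGTTTAC on the reverse strand, and GAGAG at both ends, with overlapping matches at one of them. Within 50 bp of the summit, GC made up 27.7% of the bases at cbt, 29.7% at Lk6 and 34.7% at Atf3. The median over all optimal summits was 33.7% and over the 100 strongest 29.7%. In this window the cbt and Lk6 summits were thus below the median of all, near that of the strongest. The Atf3 summit was close to the median of all. These places changed with the window. Within 100 bp of the summit GC was 40.8% at cbt, 32.3% at Lk6 and 40.3% at Atf3. The median over all optimal summits was then 35.8%, so that cbt and Atf3 were above it and Lk6 below. In 51 bp windows at the summit Lk6 had 37.3%, above the mean of 34.1% over all optimal summits. There cbt (23.5%) and Atf3 (31.4%) were below that mean.

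**Figure D1:**
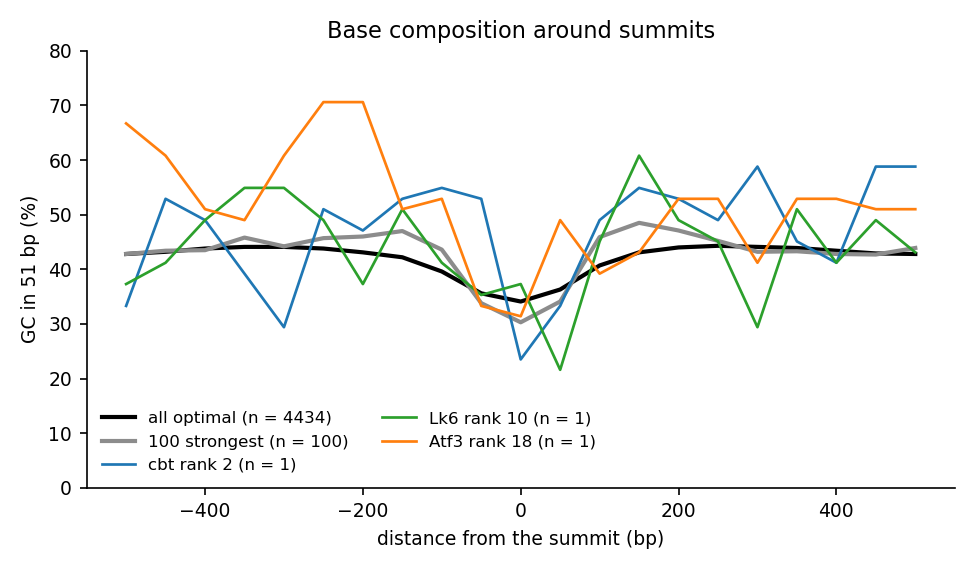
GC content (%) in 51 bp windows against the distance from the summit (bp) for the strongest summits of cbt, Lk6 and Atf3, and as the mean of all 4434 optimal summits and of the 100 strongest. The means dip to 34.1% and 30.3% at the summit, and the single summits have 23.5% at cbt, 31.4% at Atf3 and 37.3% at Lk6, so that cbt lies below both means, Atf3 between them and Lk6 above both.

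The zinc finger gene cbt (FBgn0043364) had the strongest region of the set. It lies on 2L from 476446 to 479688 on the reverse strand, wholly inside the span of ush, a gene for a GATA-factor partner that runs the other way. Its strongest summit had a signal of 2524, rank 2 of the optimal list, with 1360 in replicate 1 (rank 3) and 1167 in replicate 2 (rank 2). The replicates thus placed it alike, and their summits lay 10 and 3 bp from the pooled one. This region, chr2L:480814-481348, is 1377 bp upstream of the cbt start and in an intron of ush, whose nearest start is farther away than that of cbt.

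Upstream of cbt were another 2 optimal summits, so that 3 in all preceded the gene. The nearest to the start, at 390 bp, had a signal of 950 (rank 66), with 462 and 486 in replicates 1 and 2. The farthest, 2241 bp upstream, had 288 (rank 904), and here the replicates differed, with 230 in replicate 1 and 59.8 in replicate 2. The fourth optimal summit in the cbt window, with a signal of 514 (254 and 260), lay 257 bp from the start of CG4297 and 7231 bp from that of cbt. All 3 upstream summits lie inside ush, and the Mediator gene MED15 is within 5 kb of those at 390 and 1377 bp, so which gene a summit belongs to cannot be told apart.

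The kinase gene Lk6 (FBgn0017581) spans 13527 bp of 3R on the reverse strand, from 11750931 to 11764457, and has 2 transcript starts. Its strongest summit had a signal of 1790, rank 10, with 852 in replicate 1 (rank 15) and 936 in replicate 2 (rank 7). Both replicates placed it among their 20 strongest. It lies at chr3R:11760833-11761281, in an intron of the longer transcript, 965 bp upstream of the start of the shorter one. A summit at the upstream start itself, 10 bp inside the gene, was much weaker, with 128 in the pooled libraries (rank 3162), 58.0 in replicate 1 and 71.6 in replicate 2. Another optimal summit, of 115 (rank 3684), was called within nearly the same region as the strongest. Within 100 bp of this shoulder replicate 2 had a summit (48.7, rank 4558) and replicate 1 had none. The gene l(3)neo38 is within 5 kb of each of the 3 summits.

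The bZIP gene Atf3 (FBgn0028550) spans 32545 bp of X, from 1242740 to 1275284, on the reverse strand, with 1 transcript start. Its strongest summit, 227 bp upstream of that start at chrX:1275276-1275741, had a signal of 1504, rank 18. The replicate values were nearly equal, at 756 in replicate 1 (rank 22) and 747 in replicate 2 (rank 15). A further summit 1924 bp upstream had 605 (rank 213), with 250 and 349 in the replicates. No other protein-coding gene lies within 5 kb of any of the 5 Atf3 summits, whereas each of the 4 cbt summits has another gene in reach.

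Inside Atf3, in introns of all 3 of its coding transcripts, were 3 weak optimal summits. They lay 2248, 4569 and 5475 bp downstream of the start, with signals of 110, 103 and 105, near the lower end of the optimal list. The replicate values were 64.1 and 47.5, 67.8 and 33.8, and 47.6 and 52.4, in the same order. The strong Atf3 signal was thus before the start, and the optimal summits of the transcribed part were weak. Their similar signals lie just above the 100.7 at which the optimal list ends. The Atf3 window held another 20 candidates outside that list, up to a signal of 79.4.

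**Figure D2:**
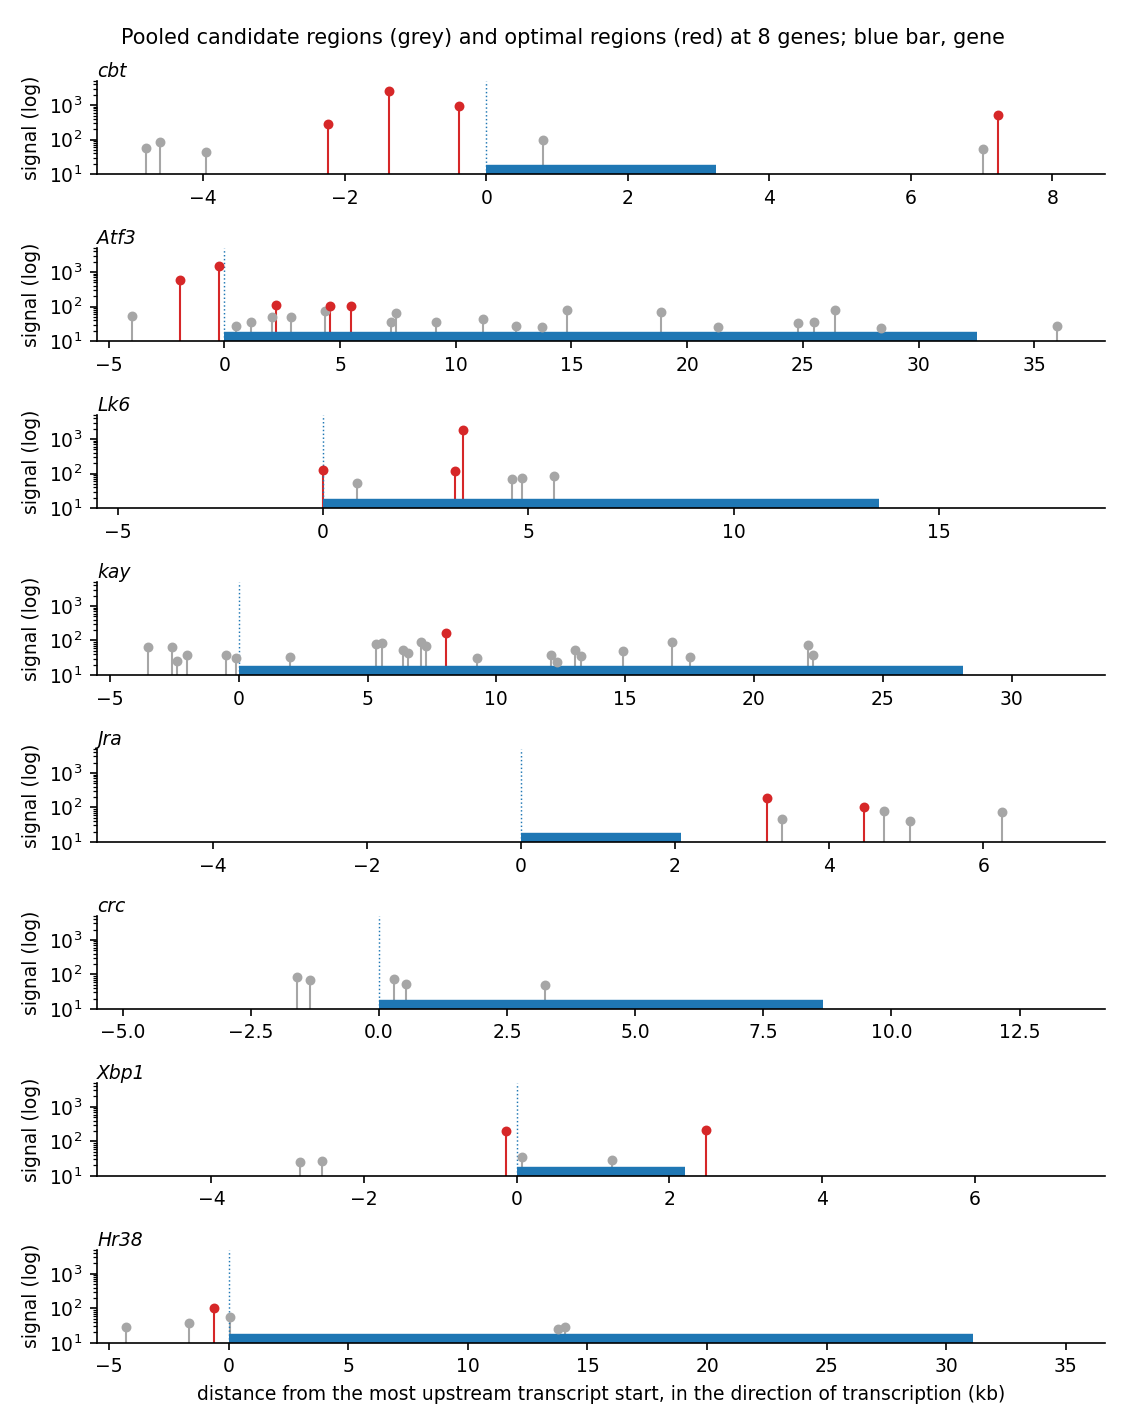
Signal of the pooled candidate regions (log axis) against the distance in kb from the most upstream transcript start of each gene, with 5 kb to either side; red points are regions of the optimal list, grey points the other candidates and the blue bar the gene. The tall red points sit before the start of cbt and Atf3 and inside Lk6, while kay has 23 grey candidates and 1 red region.

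Between these 3 genes and the other 5 the signal stepped down. The weakest of the 3 strongest regions, at Atf3, had 1504, and the next gene, Xbp1, had 216, at a summit nearest to the Hmg-2 start. Of the 5714 protein-coding genes with an optimal summit in their window, 4 had a stronger one than cbt, 26 than Lk6 and 45 than Atf3. For Xbp1 the number was 2789, for Jra 3280 (by a summit nearest to a 14-3-3zeta start), for kay 3877 and for Hr38 5564. In each replicate list the 100 strongest regions reached cbt, Lk6 and Atf3 and none of the other 5 genes. Within each replicate cbt was the highest of the 3 (1360 in replicate 1 and 1167 in replicate 2), then Lk6 (852 and 936), then Atf3 (756 and 747). At the strongest pooled summits of Xbp1 (169 and 37.7), kay (136 and 32.4) and Hr38 (70.5 and 40.9) the order differed between replicates 1 and 2. Jra had a value in replicate 2 alone. These are single values from the same 2 libraries, at genes chosen with the signals known, and neither order was tested.

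**Figure D3:**
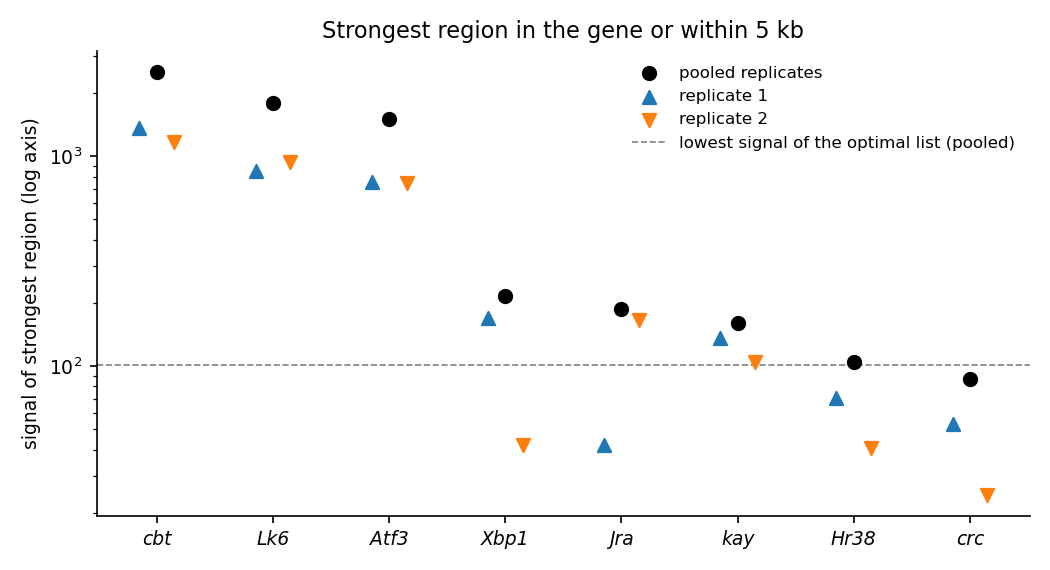
Signal (log axis) of the strongest region in each gene or within 5 kb, in the pooled list and in each replicate list, where the strongest region may be a different one. Both replicates of cbt, Lk6 and Atf3 lie at 747 or higher, and the pooled value of crc, 86.5, lies below the dashed line at the lowest signal of the optimal list.

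The strongest summits in the windows of the AP-1 genes kay (160) and Jra (187) were near the median of all optimal summits, 164. Over all genes with a summit, the median of the strongest signal was higher, 214. The Fos gene kay (FBgn0001297) spans 28119 bp of 3R, from 29765995 to 29794113, and has 4 transcript starts. Its only optimal summit had a signal of 160 (rank 2315), with 136 in replicate 1 and 32.4 in replicate 2, whose summit lay 92 bp away. It lies in an intron, 1132 bp downstream of the nearest kay start. A non-coding RNA gene, lncRNA:CR46110, has a start that is nearer still. The kay window held another 23 candidates outside the optimal list, up to a signal of 92.7. Its 24 pooled candidates and the 25 at Atf3 were the most at any of the 8 genes. In replicate 2 the strongest kay region was another, 139 bp downstream of the same start, with 104. The strongest kay region was thus not the same in both replicates.

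The Jun gene Jra (FBgn0001291) has 2 optimal summits within 5 kb and none that is nearest to a Jra start. It lies on 2R from 10096480 to 10098556. The stronger summit (187, rank 1821) lay 2740 bp from the nearest Jra start but 9 bp from a start of the next gene, 14-3-3zeta, which encodes a phosphoserine-binding adaptor protein. The weaker (106, rank 4116) lay 107 bp from another 14-3-3zeta start. The stronger of these summits was seen in replicate 2 (166, rank 547), and replicate 1 had no candidate overlapping it. For the weaker, replicate 2 had 82.8 and replicate 1 an overlapping region of 38.7 whose summit was 263 bp away. The strongest region of replicate 1 anywhere in the Jra window had 42.1, at rank 6877.

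Of the effectors of protein stress, Xbp1 had 2 optimal summits and crc had none. Xbp1 (FBgn0021872), on 2R from 21143545 to 21145750, carried 1 of them in its own promoter, 138 bp before the start, with a signal of 203 (rank 1615). Replicate 1 gave 166 there and replicate 2 42.0. The other, with 216 (rank 1440, 169 and 37.7 in the replicates), lay 175 bp from the start of the neighbour Hmg-2 and 2479 bp from that of Xbp1. At both, replicate 1 was about as far above replicate 2 as at the kay summit. Besides Hmg-2, another 4 genes (CG15657, CG30389, CG9406 and Magi) have these summits within 5 kb.

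The ATF4 gene crc (FBgn0000370), on 2L from 21310866 to 21319527, had 5 pooled candidates in its window and no optimal summit. The strongest candidate had 86.5 at rank 5480, below the lowest optimal signal of 100.7, and lay 215 bp from the start of Mondo, the neighbouring gene for a sugar-sensing transcription factor, not from that of crc. The strongest near a crc start had 75.5 at 299 bp downstream. Replicate 1 had 10 candidates in this window, with 53.1 as the highest, and replicate 2 had 1, with 24.4. The nearest optimal summit was 46982 bp from the gene. Just outside the optimal list were candidates of 96.5 at cbt, 92.7 at kay and 86.5 at crc, and just inside it were summits of 103 in Atf3 and 104 at Hr38.

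Hr38 (FBgn0014859), the activity-induced nuclear receptor gene, spans 31127 bp of 2L from 20683462 to 20714588 on the reverse strand. Its 1 optimal summit lay 619 bp upstream of its start with a signal of 104, rank 4244 of 4434. Replicate 1 gave 70.5 (rank 3503) and replicate 2 40.9 (rank 5972), with a summit 95 bp away. The next candidate, 72 bp inside the gene, had 55.9, and the gene body was almost empty, with 2 candidates of 29.2 and 25.5 in introns. Hr38 had 1.46 pooled candidates per 10 kb of window, the lowest of the 8 genes, against 6.80 at cbt, 6.30 at kay and a median of 1.94 over all protein-coding genes.

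By position, 13 of the 18 optimal summits at these genes lay within 2500 bp of one of the gene's own starts. They include the Xbp1 summit at 2479 bp, which lies 175 bp from the Hmg-2 start. This count has no share over all genes beside it, and the windows themselves end 5 kb from each gene. Of the 18, 8 were in promoters, meaning within 500 bp of a coding transcript start of any gene, whether or not an exon lay there. Outside promoters, 8 were in introns and 2 between genes, with none in a coding exon or UTR. The promoter class includes the Lk6 summit 10 bp inside the gene, which lies in an exon. Among all optimal summits 37.6% were in promoters, 43.1% in introns and 17.9% between genes. The nearest coding start was the gene's own for 14 summits, and 9 of these lay upstream of it, again with no share over all summits to set beside them. The other 4 were nearest to a start of CG4297, 14-3-3zeta or Hmg-2. By nearest start, 6 of the 8 genes kept a summit, beside 19.4% of all genes, and Jra and crc did not. Just beyond the 5 kb limit, the closest summits not counted were at 5086 bp from cbt (signal 167) and 5243 bp from Jra (126).

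The replicates were close at the 3 strongest regions and far apart at several weaker ones. Replicate 2 was 1.10 times replicate 1 at the Lk6 summit, 0.989 times at Atf3 and 0.858 times at cbt. By contrast it was 0.223 and 0.254 times at Xbp1, 0.238 times at kay and 0.260 times at the cbt summit 2241 bp upstream, values below which 4.29% to 6.40% of the optimal regions lie. At the weaker Jra summit it was 2.14 times, a value below which 95.0% lie, but this rests on a replicate 1 region whose summit was 263 bp away. With summits required within 100 bp of each other, neither that Jra pair nor the Xbp1 promoter pair had a counterpart in both replicates. Within 50 bp that Jra summit held 62.4% GC, and the stronger Jra summit, seen in replicate 2 alone, held 50.5%. The Xbp1 promoter summit held 17.8%, a value below which 0.789% of the optimal summits lie, and the other Xbp1 summit held 28.7%. The kay summit, with as low a ratio, held 33.7%, the median of all. Over all optimal regions the median ratio rose from 0.448 where GC was below 25% to 1.20 where it was 50% or higher (Spearman rho 0.473 across 4264 regions, which share the same 2 libraries, as a description). The part of GC in the replicate difference at these genes was not tested. With 1 library on each side the difference itself has no replicate check.

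**Figure D4:**
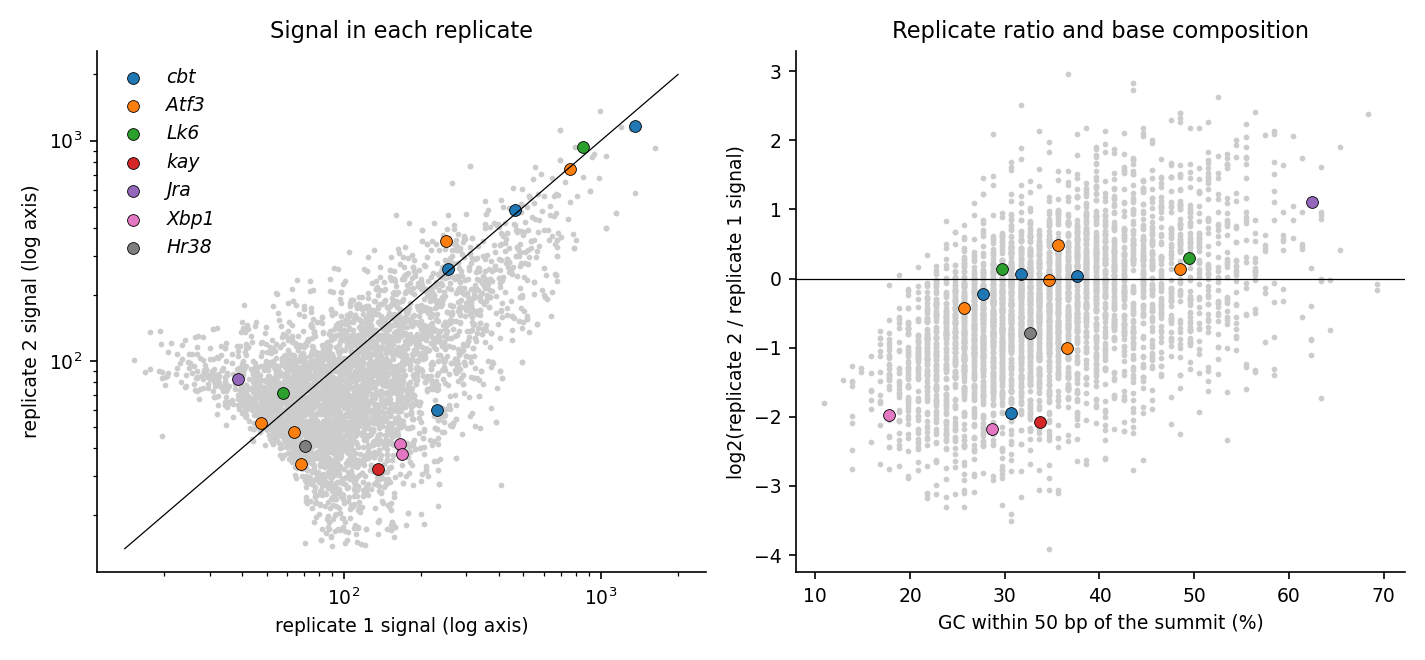
On the left, replicate 2 against replicate 1 signal (log axes, with a line of equality) and on the right the log2 ratio of replicate 2 to replicate 1 against GC (%) within 50 bp of the summit; grey points are all optimal regions with a counterpart in each replicate and coloured points those at the named genes, except the Lk6 shoulder. The strong cbt, Lk6 and Atf3 summits lie along equality, the Xbp1, kay and rank 904 cbt summits lie at log2 ratios of -2.17 to -1.94 and the Jra summit at 1.10.

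The 16 words searched are short sequences that Org-1's family, the factors these genes encode, common promoter factors and other factor families are known to bind. The other families include heat shock, forkhead, homeodomain and GATA factors, which none of the 8 genes encodes. Words were sought on both strands within 50 bp of each of the 18 summits, and the share given beside each is that of all 4434 optimal summits. Absent from all 18 were the T-box core AGGTGTG (0.586%), the AP-1 word TGANTCA (2.48%), the cyclic AMP response element TGACGTCA (0.0902%), the Krüppel-like box CACCC (7.24%), the nuclear receptor word AAGGTCA (0.541%), the forkhead word TGTTTAC (4.49%), DREF TATCGATA (0.857%) and AGATAA, a word of GATA factors (8.34%). No match says only that these letters are not in these windows. Within 100 bp the T-box core was found at 1 of the 18, at Jra (1.53% of all).

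Some words were present at a few summits. The ATF4-type composite word TGATGNAA was found at 2 of the 18, both weak intronic summits of Atf3 (11.1%, beside 1.56%). The core TGACG was found at an intronic Atf3 summit and at the upstream start of Lk6 (11.1%, beside 6.18%). The heat shock core GAANNTTC was found at 3, one each at Atf3, Jra and Hr38 (16.7%, beside 2.71%). ACGTGG, the core of the word bound by Xbp1, was found once, at the Lk6 shoulder (1.38% of all). The E-box CANNTG was found at 8 (44.4%, beside 36.1%), GAGAG at 3 (16.7%, beside 10.6%), TATAAA at 2 (11.1%, beside 20.1%) and TAATTA at 1 (5.56%, beside 8.95%). Of the 18 summits, 6 held none of the 16 words within 50 bp: the strongest Lk6 summit, whose matches lie farther out, the kay summit, both Xbp1 summits and 2 of the 4 cbt summits. The matches are a description of letters, and none was tested.

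The windows below show 5 of the summits with such words at Atf3, Lk6 and Hr38, the second-strongest cbt summit, and the kay summit, which held no word. Each is the summit base with 50 bases to either side, on the forward strand of dm6, with the same use of capitals. They are chrX:1277158-1277258, chrX:1272986-1273086, chrX:1269759-1269859, chr3R:11761197-11761297, chr2L:20715157-20715257, chr2L:480028-480128 and chr3R:29773974-29774074, in that order.
Atf3, rank 213: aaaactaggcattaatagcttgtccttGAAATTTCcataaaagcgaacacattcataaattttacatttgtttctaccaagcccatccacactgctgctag
Atf3, rank 3945: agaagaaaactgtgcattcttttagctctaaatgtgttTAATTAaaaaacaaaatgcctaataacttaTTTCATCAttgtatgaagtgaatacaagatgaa
Atf3, rank 4193: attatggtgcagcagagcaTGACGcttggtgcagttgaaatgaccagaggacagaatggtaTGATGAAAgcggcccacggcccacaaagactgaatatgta
Lk6, rank 3684: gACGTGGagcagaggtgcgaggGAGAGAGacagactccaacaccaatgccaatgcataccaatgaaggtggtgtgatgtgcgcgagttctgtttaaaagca
Hr38, rank 4244: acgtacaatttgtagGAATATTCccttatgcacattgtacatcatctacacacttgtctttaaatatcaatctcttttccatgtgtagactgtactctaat
cbt, rank 66: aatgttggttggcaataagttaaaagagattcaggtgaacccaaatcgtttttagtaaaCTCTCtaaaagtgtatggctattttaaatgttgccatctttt
kay, rank 2315: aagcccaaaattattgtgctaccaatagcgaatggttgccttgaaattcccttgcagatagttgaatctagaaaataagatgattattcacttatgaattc

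In the first Atf3 window the capitals show the heat shock core. In the second they show the ATF4-type word and TAATTA, and in the last the ATF4-type word and TGACG. In the Lk6 window they show the Xbp1 core followed by overlapping GAGAG words, and in the Hr38 window the heat shock core. In the cbt window they show GAGAG on the reverse strand.

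The other genes of these pathways were followed in 9 lists, of which 114 genes are not among the 8. An optimal summit lay in or within 5 kb of 79 of the 114 (69.3%) and within 500 bp of an own start of 39 (34.2%), beside 41.0% and 13.6% of all protein-coding genes. The listed genes had a median span of 5910 bp against 2166 bp for all genes, and the part of gene length in these shares was not tested. The median of the strongest signal at those with a summit was 241, beside 214 for all genes with one.

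Among 18 other JNK and AP-1 pathway genes 12 had a summit (66.7%, beside 41.0% of all genes). The kinase gene Mkk4 had the strongest (705, with 445 and 262 in the replicates), 182 bp from its own start but 106 bp from that of SLIRP2. The phosphatase gene puc, itself a JNK target, had 400 in an intron, raw, a gene needed for dorsal closure, had 417 (347 and 78.5) and the kinase gene msn 343. The receptor genes wgn and grnd and the Jun kinase gene bsk had none. Each of the 12 was below the 1504 of Atf3, the Jun partner, which was chosen with its signal known.

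For the unfolded protein and integrated stress responses, 11 of 16 other genes had a summit (68.8%, beside 41.0% of all genes). The strong ones lay at neighbours' promoters. The summit counted for the eIF2 kinase gene Gcn2 (1547) lay 79 bp from the start of PNPase, that for PPP1R15, whose product directs dephosphorylation of eIF2, (1085) 269 bp from the start of Sox14, and that for Pdi (562) 75 bp from that of CG12316. By contrast the summit at Herp, a gene of protein degradation at the endoplasmic reticulum, was 76 bp from its own start (333). The sensor gene Ire1 had 153 in an intron, and the sensor gene Atf6, eIF2alpha and the chaperone gene Hsc70-3 had none.

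Of 14 other bZIP genes 7 had a summit, beside 41.0% of all genes. The strongest was at slbo (639, with 309 and 329), the C/EBP gene of border cells. Next were Irbp18 (467, but 23 bp from the start of APP-BP1), Pdp1 (353) and vri (327). The slbo summit lay between genes, 4543 bp from the slbo start. Atf-2, Atf6 and REPTOR-BP had none. Among 7 other Sp and Krüppel-like genes, the family of cbt, 3 had a summit (42.9%, close to the 41.0% of all genes). These were dar1 (303), Spps (189, but 57 bp from the start of mask) and luna (138). At an own start 0 had one, beside 13.6% of all genes, and Klf15, Sp1 and btd had none in the window. The cbt signal of 2524 was above each of these, but cbt was chosen with its signal known.

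Among 20 other nuclear receptor genes, the family of Hr38, 15 had a summit, beside 41.0% of all genes. Hr3 had 977 (626 and 352) in an intron it shares with CG12912 and CG46321, Hr4 671, Eip75B 415 at 43 bp from its start and Hnf4 404. For usp, whose product pairs with Hr38 and with the ecdysone receptor, the summit lay 129 bp from its start with 187, and svp, tll and dsf had none. Hr38 itself (104) was lower than each of these 15. Of 12 other genes of the MAP kinase and translation control list around Lk6, 10 had a summit (83.3%, beside 41.0% of all genes). They included Raf at 1063 (455 and 607, in an intron), p38a at 489 (404 and 89.5) and Mekk1 at 449 (302 and 137). The gene of the Lk6 substrate, eIF4E1, had 293, though that summit lay in an intron of CG4080, 4482 bp from an eIF4E1 start. The ERK gene rl and eIF4G1 had none. Among 8 other immediate early and activity-induced genes all 8 had a summit within 5 kb, beside 41.0% of all genes. At an own start 1 had one (12.5%, close to the 13.6% of all genes). The 8 were led by the muscle and neuronal factor gene Mef2 (1219, nearest to Pal1), the EGFR inhibitor gene aos (617) and the CREB co-activator gene Crtc (413, nearest to CG7484). The fly Egr gene, sr, had 153 in an intron.

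**Figure D5:**
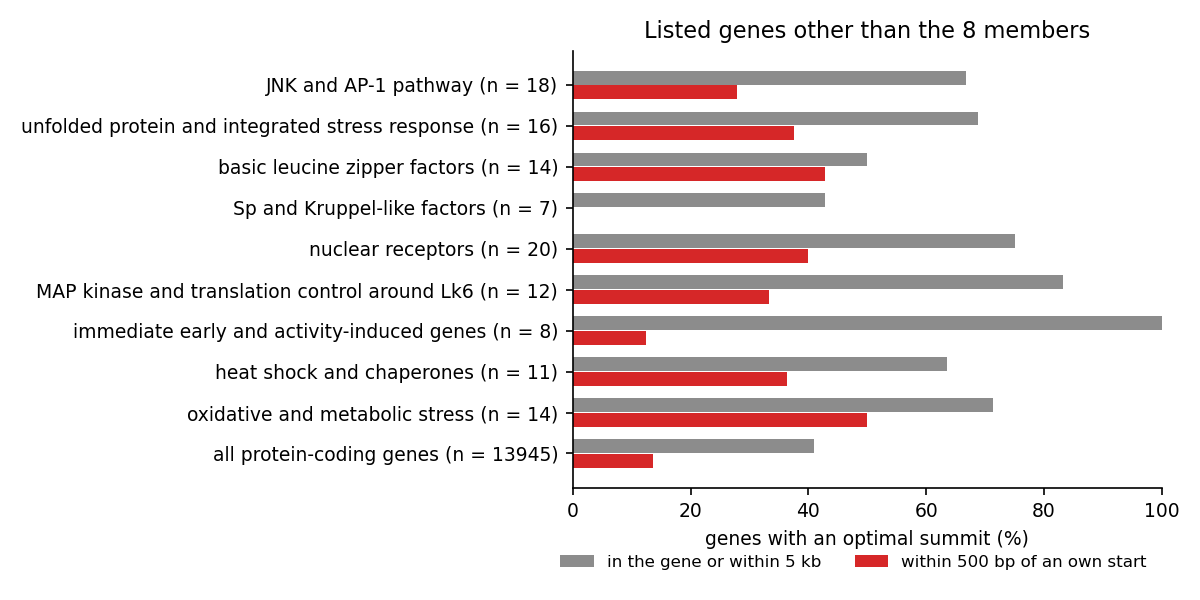
Share (%) of the genes of each list, without the 8 named genes, that had an optimal summit in the gene or within 5 kb (grey) and within 500 bp of an own start (red), with the number of genes in brackets and all protein-coding genes in the bottom bars. In each list the grey bar is at or above 42.9%, beside 41.0% for all genes.

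By the signal of the strongest summit in the window, the 5 genes nearest to each of cbt, Lk6 and Atf3 were partly neighbours that share the summit itself. For cbt, MED15 and ush had the same summit in reach, and CG32772, CG4041 and CG42594 each had a signal of 2560, a log2 difference of 0.02. For Lk6, l(3)neo38 shared its summit, Chro, Ssl1 and slif each had 1806 and NimC3 had 1816. For Atf3 the nearest were CG15861, CG2790, CG2811, CG3760 and CG3770, each with 1510. These are likenesses in 1 value per gene over the pooled libraries.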

How the data were processed

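ChIP-seq of Org-1 fused to green fluorescent protein was measured in 2 biological replicates. Per the descriptions deposited with the files, the authors called each region list on the aligned reads of a replicate, or of both, against those of a control. Neither the read aligner nor the program that called peaks was stated in the sources used here. The deposited lists give a signal per region, whose scaling is not stated, a −log10 q value and a summit. The deposited −log10 q was not used for ranking. Lists in build dm3 were not used.

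Gene models came from Ensembl release 115 (BDGP6.54) and sequence from the RefSeq copy of genome release 6, whose arms hold every dm6 region. A replicate region was the counterpart of an optimal region when they overlapped by 1 bp or more, the one with the highest signal if several. Of 124 listed symbols 121 matched as written, 1 by a synonym and 2 not. The genes and lists were chosen with earlier results of these data known. The text names all 8 genes, the gene with the start nearest to each of their summits, the 4 other genes of greatest signal in each list and up to 3 that lack a summit, and 5 genes of like signal for cbt, Lk6 and Atf3. Other genes in reach, usp, sr and Ire1 were named after their values were seen. No statistical test was made. Counts were recomputed with other windows, with the 1000 strongest regions and with the regions of 1 replicate alone, and counterparts also by an overlap of 50% of the shorter region or by summits within 100 bp. Scripts ran in Python 3.11.15 with pandas 2.3.3.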

Additional observations from a re-analysis of the deposited data

How the results depend on the processing

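The counts of genes depended on the window and the number of regions. With summits in the gene span alone, 3 of the 8 genes had an optimal summit (Atf3, Lk6 and kay, beside 11.6% of all genes). Among the 1000 strongest regions 3 had one (cbt, Atf3 and Lk6, beside 15.0%), and 2 had one within 500 bp of an own start (cbt and Atf3, beside 4.41%). Windows of 2 kb and 10 kb gave the same 7 genes, beside 28.0% and 56.2% of all genes. Leaving out a replicate, with the 4434 strongest regions of the other in place of the optimal list, gave 5 to 6 genes with a summit: Xbp1 and Hr38 were lost without replicate 1 (beside 40.5% of all genes) and Jra without replicate 2 (beside 40.4%). It gave 4 to 5 genes at an own start, where kay was gained in both, Jra was gained and Xbp1 lost without replicate 1, and Lk6 was lost without replicate 2 (beside 13.8% and 13.5%). It gave 3 genes in reach of the 100 strongest (beside 1.89% and 2.02%). Of the 18 summits, 17 had an overlapping region in both replicates, 16 one overlapping by 50% of the shorter region and 14 a summit within 100 bp. Of 31 ranks of a gene's strongest summit under other settings, 7 moved by over 1.5 times, at kay, Jra, Xbp1 and Atf3. The Atf3 rank went from 18 to 3945 with the gene span alone, which leaves out the summit 227 bp upstream of the start. The moves at kay, Jra and Xbp1 came with a replicate left out, and their cause was not tested. Read depth is unknown, and 2 libraries of 1 group allow no test between samples. No paired analysis was possible because there is 1 group.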

Other observations

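Genes of the heat shock and oxidative stress responses, which are not among the 8 regulators, also carried optimal regions, with a median of the strongest signal of 440 and 363 over the genes that had one, beside 214 for all genes. Of 11 heat shock and chaperone genes 7 had an optimal summit within 5 kb (63.6%, beside 41.0% of all genes). Hsp27, a small heat shock protein gene, had one of 699 (451 and 247 in replicates 1 and 2) 146 bp from its start, and the neighbour Hsp23 had the same summit in reach. Hsp83, the fly Hsp90 gene, had 613 (309 and 306) 122 bp from its start, and the co-chaperone gene stv had 440 (318 and 115). The heat shock factor gene Hsf, Hsp68 and DnaJ-1 had none.

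Of 14 oxidative and metabolic stress genes 10 had a summit (71.4%, beside 41.0% of all genes). At an own start 7 of the 14 had one, beside 13.6% of all genes. The strongest was at Sesn, the sestrin gene (1072, with 532 and 547), 235 bp from its own start and as far from that of CG46429. Next were eIF4EHP (679, with 514 and 161) and Keap1 (657, with 417 and 241, in an intron of kuk). Keap1 is the gene of the inhibitor of the Nrf2-like factor Cnc. REPTOR, the gene of a transcription factor downstream of TORC1, followed (622, with 368 and 260). The genes maf-S, Sod2 and Cat had none. These lists were chosen with results of these data known, and no test was made.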
